A study of Mus musculus with 6 samples.

Results

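The genes described here are the antioxidant enzymes of brown adipose tissue: the glutathione peroxidases (Gpx), peroxiredoxins (Prdx), superoxide dismutases (Sod), glutathione S-transferases (Gst), catalase, the thioredoxin system, glutathione synthesis and reduction, the haem oxygenases, Nqo1 and the regulator Nfe2l2. They were chosen by gene symbol, with a rule that uses no measured value, and numbered 55 of the 24016 genes in the deposited table. PolyA RNA from brown fat of C57BL6 mice was sequenced in 6 libraries, 3 from wild-type (WT) mice and 3 from AdIl17rc KO mice, in which, by the series title, the IL-17 receptor subunit IL-17RC is missing from adipocytes. Which Cre line or promoter drove the deletion is not given in the sources used here, nor are the age, sex and housing temperature or whether each library is a separate animal; p-values therefore cover no more than library-to-library spread, which may be technical. Il17rc, the targeted gene, had a wild-type mean of 2.51 ± 0.62 FPKM (SD, n = 3) and a knockout mean of 0.822 ± 0.431, with no overlap between the groups. As deposited 31.7% of all tested genes were likewise lower in every knockout library, and 12.5% after the scaling described below. The log2 fold change of Il17rc was -1.21 ± 0.25 (SE) as deposited and -0.98 ± 0.19 scaled. The targeted gene itself did not pass the test used here (limma adjusted p = 0.151 and 0.226).

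Brown fat cells burn fuel in densely packed mitochondria, whose respiratory chain gives off superoxide. Superoxide dismutases turn superoxide into hydrogen peroxide, and catalase, peroxiredoxins and glutathione peroxidases remove the peroxide. Peroxiredoxins are recharged by thioredoxin and thioredoxin reductase, and glutathione peroxidases by glutathione, which glutathione reductase restores with NADPH. The transcription factor NRF2, encoded by Nfe2l2, pairs with small MAF proteins and binds short DNA elements, known as antioxidant response elements, in front of many of these genes.

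Letters of such an element stood in the promoters of several members. RefSeq promoter windows of build GRCm38.p6, running from 250 bases before to 50 bases after a gene's start, were available for 46 of the 55 members; Gclc, Gpx2-ps1, Gsr, Gsta4, Gstt2, Hmox1, Prdx6, Prdx6b and Sod3 had no entry. The core letters TGACNNNGC stood on either strand in at least 1 window of 9 of these 46 genes (19.6%), against 14.0% of all 27025 genes with a window and 17.5% of the 8158 such genes tested in this tissue. Of the members tested in this tissue, 9 of 39 genes with a window held them (23.1%). Counted per window the share was 14.8% for all members, 16.7% for tested members and 14.6% for all tested genes. Per window the shares lay close together, and no difference was tested. They were found in Gclm, Gsta3, Gstm5, Gstm7, Nfe2l2, Prdx1, Sod1, Srxn1 and Txnrd1. The narrower letters TGANTCAGC, added after the data were examined, stood in 4 of the 46 genes (8.70%), Gstp1, Gstp2, Prdx1 and Srxn1, against 1.37% of all genes and 1.41% of tested genes. This difference was not tested either. The matches in Gstp1 and Gstp2 stand in the same longer run of letters, so these 2 genes are not independent. A match of the narrower letters with C at its N is also a match of the core letters, which was the case in Prdx1. Windows of 4 genes known as NRF2 targets, whose values by library are given further on, are printed because they hold a match. The windows of Txn1 and Gstm1, also taken as NRF2 targets below, and of Nqo1 held no match of either motif. For Txnrd1 only the window with a match is printed, and its other windows held none. Sequences run 5′ to 3′ in the direction of the gene, with every match of either motif in capitals. The NRF2 element is a description of letters and not a measured site.
Prdx1 promoter, chr4:116685349-116685648, plus strand: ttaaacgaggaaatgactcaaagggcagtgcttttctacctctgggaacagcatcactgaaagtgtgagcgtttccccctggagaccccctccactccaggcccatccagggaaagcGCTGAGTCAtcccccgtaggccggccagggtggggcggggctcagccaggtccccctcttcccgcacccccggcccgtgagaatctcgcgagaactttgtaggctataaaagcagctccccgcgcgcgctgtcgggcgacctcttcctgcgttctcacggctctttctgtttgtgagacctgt
Srxn1 promoter, chr2:152105274-152105573, plus strand: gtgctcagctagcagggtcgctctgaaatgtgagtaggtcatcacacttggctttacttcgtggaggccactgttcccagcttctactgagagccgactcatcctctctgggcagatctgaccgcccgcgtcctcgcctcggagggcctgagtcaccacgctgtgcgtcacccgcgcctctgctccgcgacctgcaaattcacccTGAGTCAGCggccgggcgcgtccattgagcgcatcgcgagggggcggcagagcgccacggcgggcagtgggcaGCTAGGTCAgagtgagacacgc
Gclm promoter, chr3:122245307-122245606, plus strand: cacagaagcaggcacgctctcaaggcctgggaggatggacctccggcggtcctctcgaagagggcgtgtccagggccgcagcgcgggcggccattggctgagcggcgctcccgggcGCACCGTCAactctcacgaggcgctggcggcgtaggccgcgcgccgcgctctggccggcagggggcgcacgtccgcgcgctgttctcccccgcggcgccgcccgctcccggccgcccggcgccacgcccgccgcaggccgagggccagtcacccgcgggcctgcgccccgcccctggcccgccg
Txnrd1 promoter, chr10:82858956-82859255, plus strand: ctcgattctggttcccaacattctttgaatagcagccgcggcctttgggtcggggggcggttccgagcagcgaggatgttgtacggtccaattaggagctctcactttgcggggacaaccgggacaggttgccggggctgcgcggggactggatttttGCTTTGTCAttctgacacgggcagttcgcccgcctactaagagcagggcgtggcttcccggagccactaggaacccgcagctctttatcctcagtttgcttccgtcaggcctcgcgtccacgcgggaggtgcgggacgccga
In Prdx1 the capitals mark 1 match, read on the opposite strand, that satisfies both motifs. Srxn1 held the narrower motif at position -45 relative to its start and the core motif, on the opposite strand, after it.

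Values are FPKM, fragments per kilobase of transcript scaled to the fragments mapped in the library, and so can be compared between genes. Library totals were not used here; the step between low values, taken as 1 fragment, corresponds to about 31500000 to 39700000 fragments per library. The 10 most abundant genes of a library held 12.3% to 15.7% of its summed FPKM in 5 libraries and 44.4% in knockout library 2. Of the 55 members, 46 had a mean of at least 0.5 FPKM over the 6 libraries and were tested among 10864 genes with limma on log2(FPKM + 0.5), a scale that understates the change of low genes. On the deposited scale most of all tested genes were lower in knockout (87.6%), with a median log2 fold change of -0.29. Fold changes are therefore also given after median-of-ratios scaling of the libraries, called scaled below, which sets the median gene to 0. Brown adipocyte markers were present in all libraries, with a summed level of 16601 to 19028 FPKM in wild type and 16994 to 19594 in knockout for 12 of 12 markers. As deposited 7 of these 12 had lower means in knockout (58.3%, against 87.6% of all genes), with a median log2 fold change of -0.08. One marker was then higher in every knockout library (8.33%, against 1.25% of all genes) and another lower (8.33%, against 31.7%). After scaling 9 of these 12 had higher means in knockout (median log2 fold change 0.26), and 6 were higher in every knockout library (50%, against 12.9% of all genes). Endothelial markers (11 of 11 past the minimum) summed to 383, 224 and 248 FPKM in WT and to 232, 144 and 143 FPKM in KO libraries, and all 11 had lower means on both scales (scaled median -0.31), with 5 lower in every knockout library (45.5%, against 12.5% of all genes, scaled). Neutrophil markers, of which 3 of 7 reached the minimum, summed to 55.1 to 76.5 FPKM in wild type and 13.8 to 54.0 in knockout (scaled median -0.94). Most of this sum came from S100a8 (means of 34.6 and 17.1 FPKM in wild type and knockout) and S100a9 (30.8 and 12.2 FPKM). The groups overlapped for S100a8 and for Retnlg (1.34 and 0.625 FPKM). Mpo, Elane, Ngp and Camp were under the minimum. No marker in these 3 lists passed the test, and the part of such cells in the values of the antioxidant genes was not tested. Skeletal muscle markers (13 of 13 past the minimum) summed to 35.8, 40.8 and 78.4 FPKM in WT libraries 1, 2 and 3 and to 399, 672 and 37.3 FPKM in KO libraries 1, 2 and 3. Of these Myl1 alone was at 32.2, 38.0 and 34.0 FPKM in WT and 62.0, 78.4 and 35.1 FPKM in KO libraries. Ckm was listed at 0 in WT libraries 1 and 2 and was at 4.45 FPKM in WT library 3. In KO libraries 1, 2 and 3 Ckm was at 32.8, 59.0 and 0.0823 FPKM. Muscle transcripts were thus also present in WT library 3, at a lower level than in KO libraries 1 and 2. In bulk tissue, fewer cells of a type and less RNA per cell cannot be told apart.

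The antioxidant genes as a whole followed the median gene. None of the 46 tested members passed an adjusted p of 0.05 by limma, either as deposited (smallest 0.159) or scaled (smallest 0.233); over all genes 2 of 10864 (0.0184%) passed on each scale. As deposited 42 members (91.3%) had a lower mean in knockout and 4 a higher one, and their median log2 fold change was -0.29, as for all genes. After scaling 20 were lower (43.5%, against 50.4% of all genes) and 26 higher, with a median of 0.03. At an unadjusted limma p under 0.05, 4 members were lower (8.70%, against 24.8% of all genes) and 1 was higher (2.17%, against 1.01%) as deposited. Scaled, 5 were higher (10.9%, against 9.05%) and 1 was lower (2.17%, against 8.61%). The scaled log2 fold changes of members reached from -0.62 for Hmox1 to 0.70 for Gpx8, and ran from -0.20 at the tenth to 0.28 at the ninetieth percentile, against -0.33 and 0.33 over all genes. No member passed in any of the 25 alternative fits tried.

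**Figure D1:**
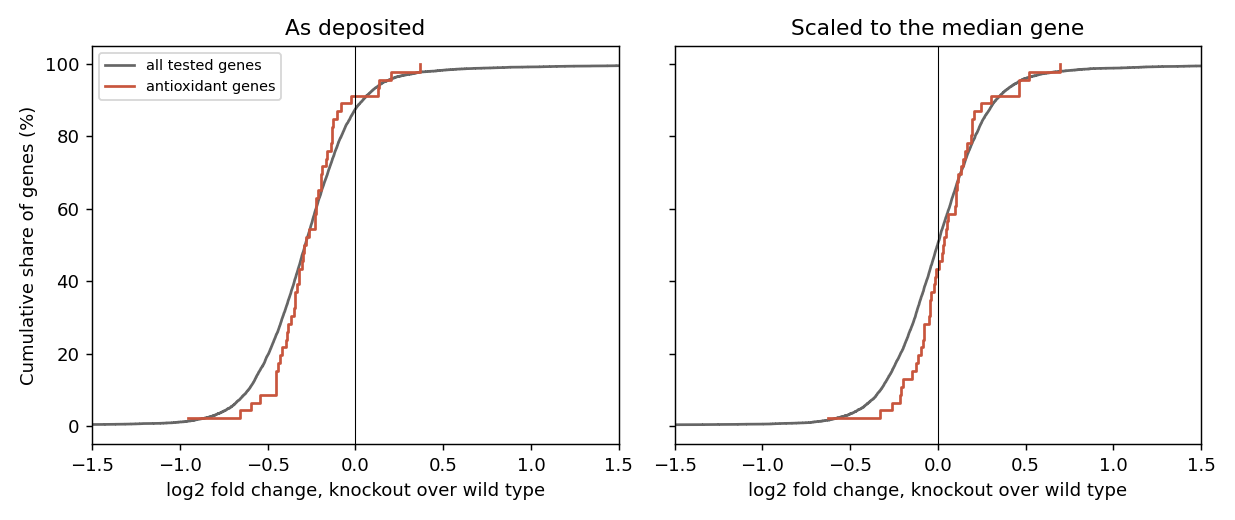
Cumulative share of genes (%) by log2 fold change of knockout over wild type, as deposited (left) and after median-of-ratios scaling (right), for all 10864 tested genes (grey) and the 46 tested antioxidant genes (red). Both curves cross 50% near -0.29 on the left and near 0 on the right.

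The levels of tested members ran from a mean of 1475 FPKM for Gpx3 to 0.741 FPKM for Gstm6. Members that did not reach the minimum were Gpx2, Gpx5 and Gpx6, each listed at 0 in every library, the pseudogene Gpx2-ps1 (0 to 0.0357 FPKM), Prdx6b (0.0102 to 0.0516), Gsta1 (0.012 to 0.167), Gsta2 (0.0105 to 0.0582), Gstt4 (0 to 0.46) and Nqo1 (0.222 to 0.914 FPKM). Nqo1 encodes a quinone reductase often used as a readout of NRF2, and it had a mean of 0.552 ± 0.316 FPKM (SD, n = 3) in WT and 0.292 ± 0.120 in KO libraries, too low for the test.

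**Figure D2:**
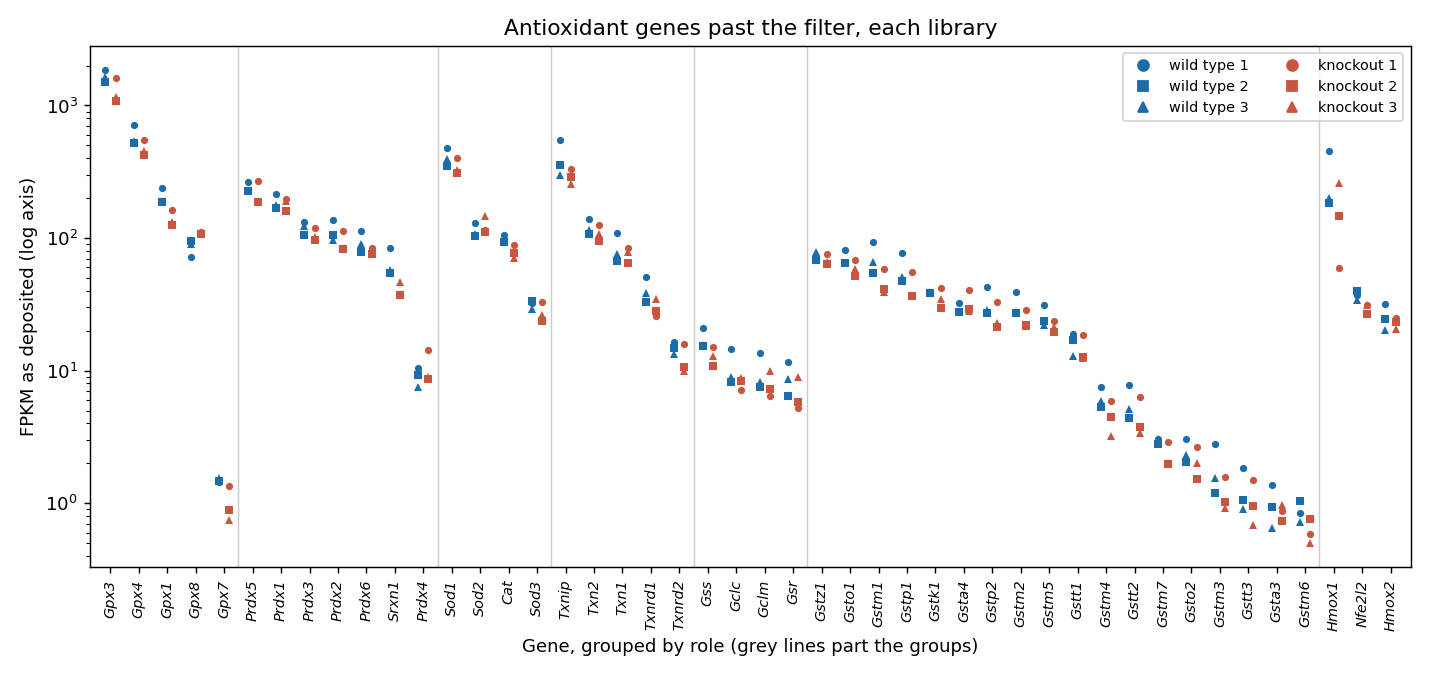
Deposited FPKM (log axis) of the 46 tested genes in each library, grouped by role and sorted by mean; blue marks are wild-type and red marks knockout libraries, with a circle, square and triangle for libraries 1, 2 and 3. Gpx3 lies highest, at 1082 to 1865 FPKM, and wild-type library 1 is the highest library for 35 of the 46 genes.

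Glutathione peroxidases held both the member with the largest positive scaled log2 fold change, Gpx8, and the one member whose values were lower in every knockout library on both scales, Gpx1; neither passed the test. Gpx3, the secreted plasma peroxidase, was the most abundant member at 1865, 1494 and 1627 FPKM in WT libraries 1, 2 and 3 and at 1619, 1082 and 1165 FPKM in KO libraries 1, 2 and 3. The groups overlapped, and its log2 fold change was -0.38 ± 0.19 (SE) as deposited and -0.05 ± 0.11 scaled. Gpx4, which reduces lipid peroxides in membranes and guards against ferroptosis, was at 711, 522 and 536 FPKM in wild type and 553, 423 and 451 FPKM in knockout. Scaled to the median gene Gpx4 varied little between libraries, from 498 to 551, with a log2 fold change of 0.03 ± 0.09 (SE).

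Gpx1, the main cytosolic and mitochondrial glutathione peroxidase, was at 239, 186 and 190 FPKM in WT libraries 1, 2 and 3 and at 162, 125 and 133 FPKM in the knockout libraries. After scaling the wild-type values were 180, 182 and 181 and the knockout values 162, 148 and 159, so every knockout library lay below every wild-type library on both scales. The log2 fold change was -0.55 ± 0.17 (SE) as deposited and -0.21 ± 0.08 scaled, without passing the test (limma adjusted p = 0.160 and 0.264). It shrank to -0.14 when GC content and length were corrected as well. A two-sided exact permutation test of Gpx1 gave p = 0.1 on each scale, which is the smallest that 3 against 3 libraries allow.

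Gpx8, a peroxidase of the endoplasmic reticulum membrane that uses cysteine in place of selenocysteine, ran the other way. It was at 71.9, 94.6 and 89.6 FPKM in WT libraries 1, 2 and 3 and at 112, 108 and 109 FPKM in KO libraries 1, 2 and 3. All 3 knockout libraries were above every wild-type library, in a direction opposite to the median gene as deposited. The log2 fold change was 0.37 ± 0.16 (SE) as deposited and 0.70 ± 0.20 scaled (limma adjusted p = 0.187 and 0.237), and without wild-type library 1, its lowest library, the scaled value was 0.46. With GC content and length corrected as well it was 0.48. Gpx7, the other peroxidase of the endoplasmic reticulum, was near the minimum, at 1.44, 1.47 and 1.55 FPKM in wild type and 1.35, 0.895 and 0.741 FPKM in knockout; the groups were separate as deposited and overlapped after scaling (log2 fold change -0.43 and -0.20).

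Peroxiredoxins had higher scaled means in knockout for 6 of 6 tested genes, while sulfiredoxin had a lower one; none passed the test. As deposited 5 of those 6 had lower means, so the sign turned with scaling for every tested peroxiredoxin except Prdx4. Prdx5, found in mitochondria, peroxisomes and cytosol, was the most abundant at 267, 226 and 227 FPKM in wild type and 270, 188 and 191 FPKM in knockout. Prdx1, the cytosolic enzyme whose window is printed above, was at 216, 167 and 176 FPKM in wild type and 197, 160 and 190 FPKM in knockout. Scaled, Prdx1 was 162, 164 and 168 in wild type and 197, 189 and 227 in knockout, which do not overlap. Its log2 fold change was -0.03 ± 0.16 (SE) as deposited and 0.30 ± 0.10 scaled (limma adjusted p = 0.910 and 0.245), and 0.11 when GC content and length were corrected as well. Prdx3, the mitochondrial peroxiredoxin, was at 132, 106 and 123 FPKM against 118, 96.6 and 102, a scaled log2 fold change of 0.14 ± 0.10.

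Prdx4, the peroxiredoxin of the endoplasmic reticulum, was about an order of magnitude less abundant, at 10.4, 9.19 and 7.497 FPKM in WT libraries 1, 2 and 3 and at 14.2, 8.72 and 9.0 FPKM in the knockout libraries. These overlap as deposited and separate after scaling, where wild type was at 7.84, 9.01 and 7.14 and knockout at 14.2, 10.3 and 10.8. The log2 fold change was 0.20 ± 0.22 (SE) as deposited and 0.52 ± 0.15 scaled (limma adjusted p = 0.521 and 0.237). Prdx2, abundant in red blood cells, and Prdx6, which also has phospholipase activity, had scaled log2 fold changes of 0.05 ± 0.10 and 0.10 ± 0.09. Erythroid markers, of which 5 of 8 reached the minimum, summed to 1232 to 2124 FPKM in wild type and 768 to 1547 FPKM in knockout; their part in the value of Prdx2 was not tested.

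Srxn1, sulfiredoxin, repairs peroxiredoxins that have been overoxidized. It was at 83.9, 54.4 and 57.3 FPKM in WT libraries 1, 2 and 3 and at 37.7, 37.3 and 46.6 FPKM in KO libraries 1, 2 and 3. The groups were separate as deposited, with the smallest adjusted p of any member (log2 fold change -0.66 ± 0.20 SE, limma adjusted p = 0.159). Scaled, knockout library 3 at 55.7 overlapped the wild-type libraries at 53.3 to 63.1, and the log2 fold change was -0.33 ± 0.16 (-0.17 with GC and length correction).

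Of the superoxide dismutases, the mitochondrial enzyme Sod2 was the one with a higher mean in knockout on both scales. Sod1, the cytosolic copper-zinc enzyme, was at 476, 347 and 393 FPKM in wild type and 401, 311 and 325 FPKM in knockout, with a scaled log2 fold change of 0.11 ± 0.09 (SE). Sod2 was at 129, 103 and 107 FPKM in WT libraries 1, 2 and 3 and at 115, 110 and 147 FPKM in the knockout libraries. Scaled, its wild-type values were 97.3, 101 and 102 and its knockout values 115, 130 and 175, with knockout library 3 the highest. The scaled log2 fold change was 0.46 ± 0.16 (limma adjusted p = 0.246) and 0.13 ± 0.17 as deposited; without knockout library 3 the scaled value was 0.29. Sod3, the extracellular enzyme, had a scaled log2 fold change of 0.13 ± 0.13. Cat, the peroxisomal catalase, was at 106, 92.8 and 99.9 FPKM in wild type and 87.9, 77.4 and 70.6 FPKM in knockout, separate as deposited (log2 fold change -0.34 ± 0.15) and level with the median gene after scaling (-0.01 ± 0.10).

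In the thioredoxin system 3 of 5 tested genes had higher scaled means in knockout and 2 lower ones, and none passed the test. Txnip, which binds and inhibits thioredoxin and limits glucose uptake, was the most abundant at 548, 355 and 298 FPKM in wild type and 331, 287 and 255 FPKM in knockout, overlapping, with a scaled log2 fold change of -0.09 ± 0.14 (SE). Txn2, mitochondrial thioredoxin, was at 139, 106 and 116 FPKM against 125, 95.0 and 108. After scaling its groups did not overlap (105, 104 and 110 against 124, 112 and 129), and the log2 fold change was 0.19 ± 0.09 with a limma adjusted p of 0.321. Txn1, the cytosolic thioredoxin, was at 109, 67.3 and 76.4 FPKM against 84.8, 65.0 and 78.1, with a scaled log2 fold change of 0.20 ± 0.12. Txnrd1, the cytosolic selenoprotein reductase, was at 51.2, 32.8 and 38.6 FPKM against 25.8, 28.1 and 34.6, with -0.45 ± 0.20 as deposited and -0.12 ± 0.18 scaled, and its mitochondrial counterpart Txnrd2 had a scaled value of 0.02 ± 0.13.

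Genes that make and restore glutathione were expressed at low to moderate levels, and all 4 were tested without passing. Gss, glutathione synthetase, was at 21.1, 15.2 and 15.5 FPKM in wild type and 15.0, 10.9 and 12.9 FPKM in knockout, separate as deposited (log2 fold change -0.40 ± 0.19 SE) and overlapping after scaling (-0.08 ± 0.10). Gclc, the catalytic subunit of glutamate-cysteine ligase, the rate-limiting enzyme of the pathway, was at 14.6, 8.24 and 9.02 FPKM against 7.10, 8.30 and 8.86. Its modifier subunit Gclm was at 13.6, 7.497 and 8.16 FPKM against 6.40, 7.28 and 10.01. In both subunits wild-type library 1 was highest and knockout library 1 lowest as deposited, and the scaled log2 fold changes were -0.02 ± 0.18 for Gclc and 0.05 ± 0.23 for Gclm. Gsr, glutathione reductase, had a mean of 8.91 ± 2.63 FPKM (SD, n = 3) in WT and 6.66 ± 1.99 in KO libraries, with a scaled log2 fold change of -0.08 ± 0.25.

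Glutathione S-transferases, which couple glutathione to reactive compounds, showed no call in any class, and differences between classes were not tested. Of 18 tested genes 17 had lower means as deposited, and after scaling 9 were lower and 9 higher with a median of 0.01; none passed. Of the mu class 6 of 7 had a negative scaled log2 fold change (median -0.10) and both pi-class genes were negative, whereas both alpha-class, both omega-class and the single kappa and zeta genes were positive, and the theta class had 1 negative and 2 positive values. Members of the mu, alpha, theta and pi classes resemble each other closely in sequence, and how reads were divided within a class is uncertain. Gstm1, the leading mu-class gene, was at 93.7, 54.1 and 65.8 FPKM in WT libraries 1, 2 and 3 and at 58.9, 41.4 and 39.4 FPKM in KO libraries 1, 2 and 3. Knockout library 1 lay above wild-type library 2, and the log2 fold change was -0.59 ± 0.24 (SE) as deposited and -0.26 ± 0.14 scaled (limma adjusted p = 0.179 and 0.352). Without wild-type library 1 the scaled value of Gstm1 was -0.17. Gstm3, also of the mu class, was at 2.77, 1.20 and 1.55 FPKM in WT against 1.57, 1.02 and 0.912 in KO libraries, with a scaled log2 fold change of -0.21 ± 0.19 that was -0.04 without wild-type library 1. Gstm4 was at 7.54, 5.32 and 5.88 FPKM in WT against 5.92, 4.44 and 3.19 in KO libraries, with a scaled value of -0.15 ± 0.15. Gstp1 was at 77.7, 47.6 and 50.5 FPKM against 55.8, 36.4 and 36.3, a scaled value of -0.11 ± 0.14.

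Gsta4, an alpha-class enzyme that detoxifies the lipid peroxidation product 4-hydroxynonenal, had the smallest scaled p of any member. It was at 32.6, 27.9 and 27.8 FPKM in WT libraries 1, 2 and 3 and at 40.8, 29.1 and 28.2 FPKM in KO libraries 1, 2 and 3, overlapping as deposited. After scaling wild type was at 24.5, 27.3 and 26.4 and knockout at 40.7, 34.3 and 33.8, with no overlap. The scaled log2 fold change was 0.46 ± 0.11 (SE; limma adjusted p = 0.233), 0.38 without knockout library 1 and 0.39 with GC and length correction, and 0.13 ± 0.18 as deposited. Gstz1, the maleylacetoacetate isomerase of tyrosine breakdown, was the most abundant transferase at 71.1, 68.8 and 78.0 FPKM against 75.7, 63.9 and 66.4. Its scaled groups were separate by a small margin, 53.5, 67.4 and 74.3 against 75.4, 75.3 and 79.4 (log2 fold change 0.25 ± 0.13, limma adjusted p = 0.353), and without wild-type library 1 the scaled value was 0.11. Gsto1, an omega-class enzyme, was at 80.8, 64.3 and 64.8 FPKM against 68.6, 51.6 and 58.7, and had a scaled value of 0.10 ± 0.09. The mitochondrial and peroxisomal kappa enzyme Gstk1 had a mean of 38.6 ± 0.7 FPKM (SD, n = 3) in WT and 35.6 ± 6.4 in KO libraries. The other 10 tested transferases had wild-type means of 0.866 to 33.1 FPKM and scaled log2 fold changes of -0.10 to 0.16.

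**Figure D3:**
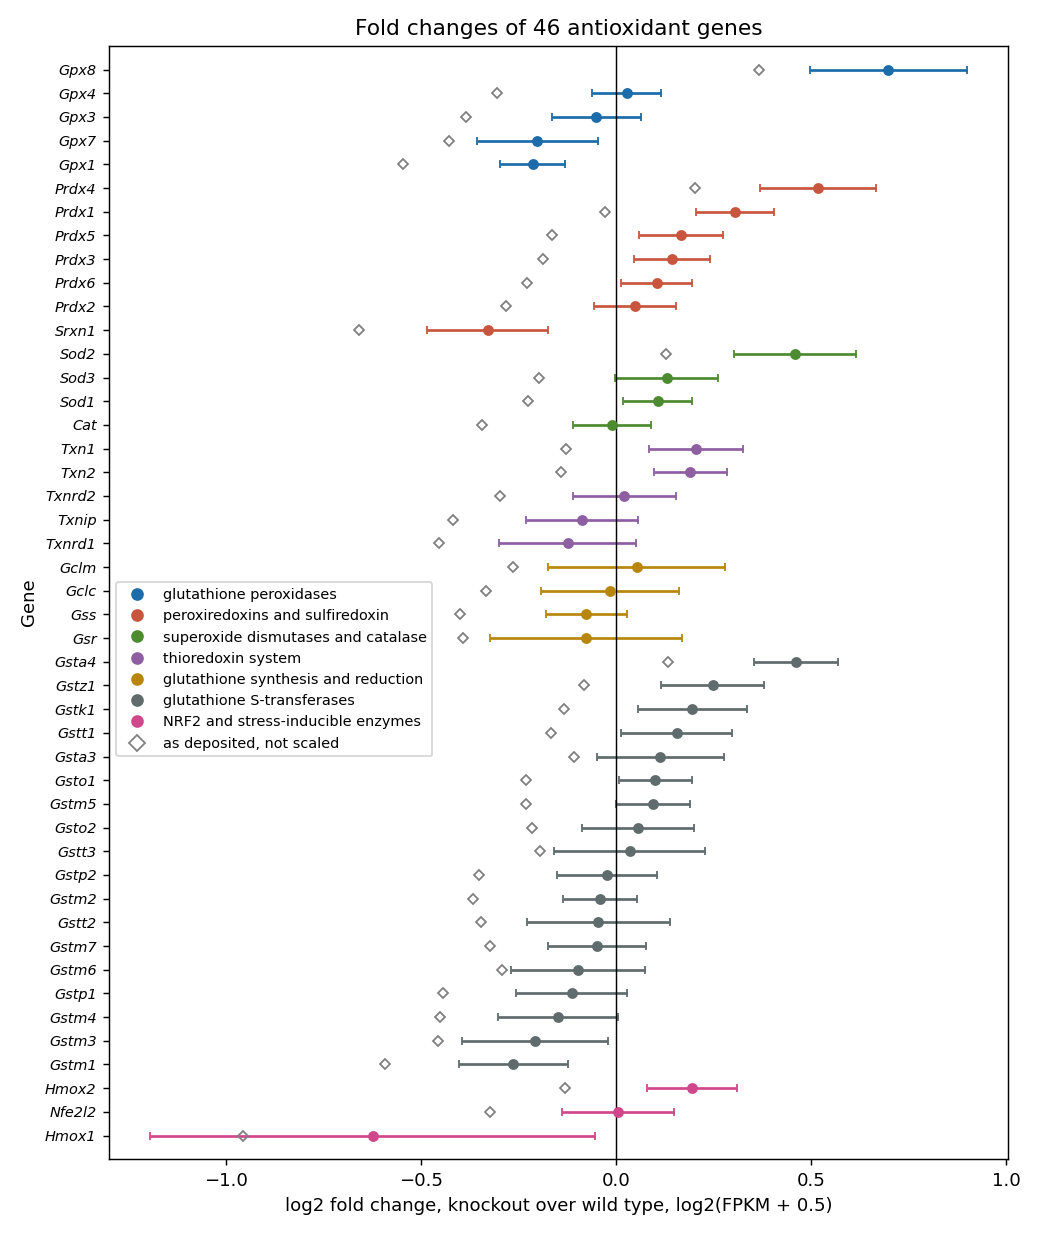
Log2 fold change of knockout over wild type for the 46 tested genes, grouped by role; filled circles with bars are scaled values ± SE (n = 3 per group), open diamonds the values as deposited. Gpx8 at 0.70 and Prdx4 at 0.52 lie farthest to the right and Hmox1 at -0.62 farthest to the left, with the widest bar.

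Hmox1, the stress-inducible haem oxygenase, varied more between libraries than any other of the 46 tested members. It was at 456, 184 and 200 FPKM in WT libraries 1, 2 and 3 and at 59.2, 148 and 261 FPKM in KO libraries 1, 2 and 3, a 5.81-fold range after scaling against a median range of 1.43-fold over the 46 members. The groups overlapped, with knockout library 1 lowest and knockout library 3 above 2 of the 3 wild-type libraries. Its log2 fold change was -0.96 ± 0.53 (SE) as deposited and -0.62 ± 0.57 scaled (limma adjusted p = 0.251 and 0.572), and the scaled value was 0.03 without knockout library 1, where its sign turned. Macrophages express Hmox1 when they take up haem; macrophage markers, with 10 of 12 past the minimum and Clec4f at 0, summed to 157, 103 and 66.8 FPKM in wild type and 96.2, 95.3 and 117 FPKM in knockout, and their part in the Hmox1 values was not tested. Hmox2, the constitutive enzyme, was at 31.6, 24.5 and 20.4 FPKM against 25.1, 23.2 and 20.5, with a scaled log2 fold change of 0.20 ± 0.11. Nfe2l2 was at 37.5, 39.9 and 34.0 FPKM in wild type and 31.02, 26.6 and 31.1 FPKM in knockout, separate as deposited (log2 fold change -0.32 ± 0.15). Scaled, it lay level with the median gene at 0.01 ± 0.14.

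The values by library of genes known as NRF2 targets are given as a description, with no test. The 9 tested members taken as such were Gclc, Gclm, Gsr, Txnrd1, Srxn1, Hmox1, Prdx1, Txn1 and Gstm1, a choice made after their values were seen. Knockout library 1 had the lowest scaled value of all 6 libraries in 6 of them. Counted the same way over all 46 tested members, knockout library 1 was lowest in 7 and highest in 16. Knockout library 3 was highest in 14 of the 46 and wild-type library 1 in 9. The 9 genes were chosen with these values seen, so the counts among them are not a result about NRF2 targets. The highest library was knockout library 3 for 5 of the 9 chosen genes and wild-type library 1 for 4. Scaled Gclm was 10.2, 7.35 and 7.76 in WT libraries 1, 2 and 3 and 6.38, 8.58 and 12.0 in KO libraries 1, 2 and 3. Scaled Gsr followed the same order within knockout, at 8.77, 6.30 and 8.23 in wild type and 5.25, 6.80 and 10.7 in knockout, as did scaled Txnrd1 at 38.5, 32.2 and 36.7 and 25.7, 33.1 and 41.3. Prdx1 and Txn1 were lowest in a wild-type library, and Gstm1 was lowest in knockout library 3. Muscle markers were highest in knockout libraries 1 and 2, lower in wild-type library 3 and not raised in knockout library 3. The part of muscle RNA in this order was not tested.

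**Figure D4:**
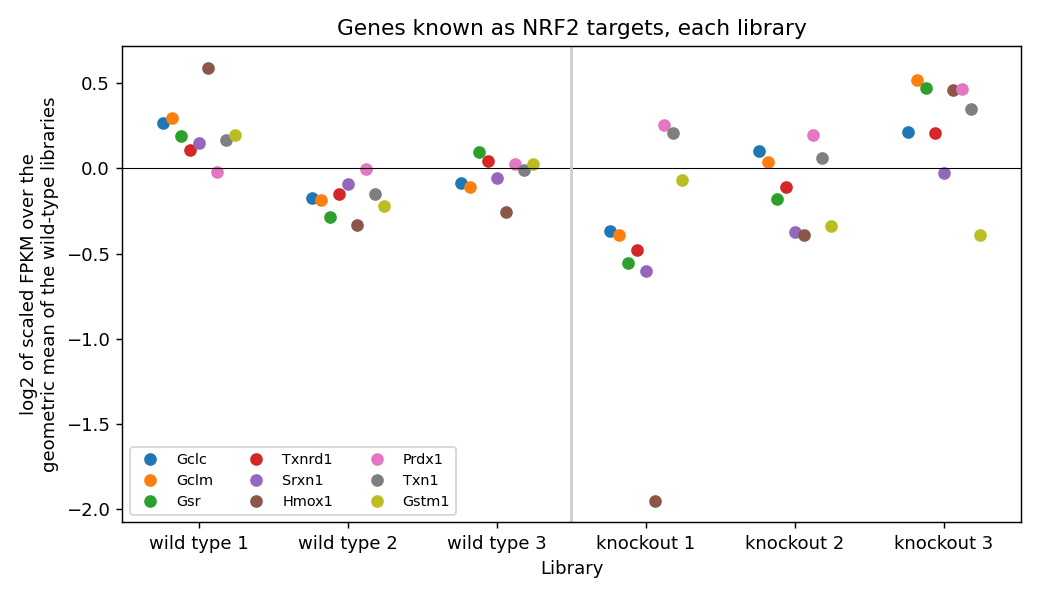
Log2 of the scaled FPKM over the geometric mean of the wild-type libraries for 9 genes known as NRF2 targets, in each library; each colour is a gene. Hmox1 in knockout library 1 lies lowest, and Gclc, Gclm, Gsr, Txnrd1 and Srxn1 are lowest of all libraries in the same library.

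Genes around these enzymes were read from lists by function, and none of their members passed over all genes. Of 19 tested genes that supply NADPH, 10 had lower (52.6%, against 50.4% of all genes) and 9 higher scaled means. The smallest p values in this list were those of Tkt, the transketolase of the pentose phosphate pathway (214.5 and 130.4 FPKM, scaled log2 fold change -0.39 ± 0.12 SE, limma adjusted p = 0.240), and G6pdx, its entry enzyme (32.8 and 21.8 FPKM in wild type and knockout, -0.24 ± 0.10, adjusted p = 0.277). In both the groups did not overlap on either scale. They were the only 2 of the 19 that lay lower in every knockout library after scaling (10.5%, against 12.5% of all genes). As deposited 5 of the 19 did so (26.3%, against 31.7% of all genes). Of 17 tested NRF2 regulators and partners, 12 had lower scaled means (70.6%, against 50.4% of all genes), the coactivator Ep300 among them (6.91 and 4.19 FPKM, -0.36 ± 0.12), and Rbx1, a subunit of the ligase that marks NRF2 for breakdown, among the others (14.2 and 15.1 FPKM, 0.39 ± 0.11).

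Of 22 other glutathione genes, 40.9% had lower scaled means (against 50.4% of all genes) and 13 had higher ones. They included Mgst1, a microsomal transferase more abundant than any Gst gene (301 and 317 FPKM in wild type and knockout, scaled log2 fold change 0.41 ± 0.12 SE, limma adjusted p = 0.237), while Abcc1, which exports glutathione conjugates, was lower in every knockout library (5.67 and 3.15 FPKM, -0.44 ± 0.11, adjusted p = 0.233). Abcc1 was the only 1 of the 22 to be so after scaling (4.55%, against 12.5% of all genes). Of 25 thioredoxin relatives and methionine sulfoxide reductases 14 were higher and 44% lower (against 50.4% of all genes). The smallest p were those of Tmx4 (0.56 ± 0.18), a thioredoxin-like protein of the endoplasmic reticulum membrane, and Msra, methionine sulfoxide reductase A (0.33 ± 0.11). Among 20 selenoproteins and their synthesis factors 11 were higher and 45% lower (against 50.4% of all genes). Dio2, the thyroid hormone deiodinase and also a brown adipocyte marker (210.5 and 268.7 FPKM, 0.67 ± 0.18), and Vimp, an endoplasmic reticulum selenoprotein (0.30 ± 0.09), had the smallest p. Of 21 further detoxification genes linked to NRF2, 13 were lower (61.9%, against 50.4% of all genes), Mocos (-0.35 ± 0.11) and Cyb5r3 (-0.24 ± 0.11) with the smallest p. Of 15 oxidant-producing enzymes and their partners 7 were lower (46.7%, against 50.4% of all genes) and 8 higher. Aox1, aldehyde oxidase (-0.40 ± 0.11), and Smox, spermine oxidase (-0.33 ± 0.13), had the smallest p in this list.

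Separate groups were found for members of several roles. Scaled, 8 members lay higher in every knockout library (17.4%, against 12.9% of all genes), namely Gpx8, Gsta4, Gstz1, Hmox2, Prdx1, Prdx4, Sod2 and Txn2, and 1, Gpx1, lay lower (2.17%, against 12.5%). As deposited 6 of the 46 lay lower (against 31.7% of all genes), namely Cat, Gpx1, Gpx7, Gss, Nfe2l2 and Srxn1, and 1 higher, Gpx8 (2.17%, against 1.25%). Gpx1 and Gpx8 were the 2 members separate on both scales. Exons of Gss, Gstm5, Gstz1, Hmox2, Prdx2, Prdx5, Txnip and Txnrd2 overlap a gene on the opposite strand in the GENCODE M21 annotation, and without a stated strand setting reads of the pair cannot be told apart. Those of Gstt3 overlap Gm20441 on the same strand, where a strand setting would not part the reads either.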

How the data were processed

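PolyA libraries of brown adipose tissue, 3 WT and 3 AdIl17rc KO, were grouped and numbered by their titles. The authors deposited 1 table of FPKM values with 24043 rows and 1 column for each of the 6 libraries. The submitters' processing notes name build mm9 and the tools Cufflinks 2.2.1, STAR 2.5.1b and DESeq2 1.10.1, without roles. Not given in the sources used here are the annotation, the strand setting and the treatment of reads with several matches, and FPKM keeps no counts, so no count model was used. The 27 rows whose symbol a workbook had turned into a date were left out. An exact 0 is given as listed at 0.

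For the 10864 genes whose mean reached 0.5 FPKM, log2(FPKM + 0.5) was tested with limma 3.58.1 in R 4.3.3 (genotype term, empirical Bayes with trend, two-sided, Benjamini-Hochberg over all tested genes, threshold 0.05). Median-of-ratios factors, by which FPKM was divided for scaled values, were 1.33, 1.02 and 1.05 for wild-type and 1.00, 0.849 and 0.836 for knockout libraries 1, 2 and 3. SE are limma's moderated values. The test was checked on simulated data without a shift between libraries and with changes larger than that of any member. Its power for changes of the members' size was not checked. GC content and length came from GENCODE M21 transcripts and promoters from RefSeq (GRCm38.p6); no coordinates were joined to the mm9 table. Comparison of protein sequences was not run.

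The members and lists were chosen with earlier results of these data known. Values in all libraries are given for the 3 most abundant members of each role and for members among the 8 smallest p in each direction on either scale; the other members are given by means or ranges, and 2 genes with the smallest scaled p per list are named. The alternatives are listed in the closing section.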

Additional observations from a re-analysis of the deposited data

How the results depend on the processing

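No antioxidant gene passed by limma in any of the 25 alternatives (smallest adjusted p 0.0519, with a replicate block). The count over all genes, 2 as reported, was 1 with no filter or with a replicate block, 14 with robust empirical Bayes, 1 with scaling plus a replicate block, 1 with scaling plus GC and length correction, with or without the block, and from 1 to 77 when a library was left out (as deposited 4, 8 and 7 with WT 1, 2 or 3 left out, and 3, 4 and 77 with KO 1, 2 or 3 left out). The labels do not say whether the replicate numbers pair the libraries. Deviations from the group means correlated, for numbers 1, 2 and 3, at 0.10, -0.12 and -0.081. Between libraries of unlike numbers the correlations ran from -0.071 to 0.18. With 3 libraries a group these values cannot show whether libraries were paired. With the block 18 members were under an unadjusted limma p of 0.05 as deposited, 17 of them lower, against 5 without it. After scaling the numbers were 5 with the block and 6 without it. The share of all genes under that p with the block was not computed, so these counts are not a result about the members.

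The member median and the number of members with lower means were 0.032 and 20 after median-of-ratios scaling, with or without a replicate block, 0.023 and 20 with GC and length correction added, with or without the block, -0.016 and 28 with quantile normalization, and ran from -0.35 to 0.065 and from 16 to 44 when a library was left out, before or after scaling. Both pseudocounts and both filters turned no sign. The log2 fold changes whose sign turned were, after scaling and equally with a replicate block, Hmox2 0.20, Nfe2l2 0.0053, Gsto1 0.10, Gstz1 0.25, Gpx4 0.028, Gclm 0.053, Prdx1 0.30, Prdx3 0.14, Prdx5 0.17, Sod1 0.11, Txn1 0.20 and Txn2 0.19. With GC and length correction as well, with or without the block, they were Hmox2 0.24, Gsto1 0.090, Gstz1 0.25, Gpx4 0.12, Gclm 0.0014, Prdx1 0.11, Prdx3 0.034, Prdx5 0.23, Cat 0.021, Sod1 0.15, Txn1 0.11 and Txn2 0.20. With quantile normalization they were Hmox2 0.14, Gstz1 0.14, Gclm 0.058, Prdx1 0.14, Txn1 0.081 and Txn2 0.041. Over the fits that leave out 1 library, as deposited or scaled, the ranges of those that turned were Cat -0.42 to 0.044, Gclc -0.48 to 0.15, Gclm -0.44 to 0.26, Gpx3 -0.56 to 0.029, Gpx4 -0.42 to 0.072, Gss -0.51 to 0.0036, Gsta4 -0.033 to 0.51, Gstm4 -0.65 to 0.015, Gsto1 -0.33 to 0.17, Gstz1 -0.15 to 0.35, Hmox1 -1.45 to 0.035, Hmox2 -0.28 to 0.25, Nfe2l2 -0.38 to 0.13, Prdx1 -0.10 to 0.36, Prdx3 -0.28 to 0.21, Prdx4 -0.016 to 0.61, Prdx5 -0.34 to 0.22, Sod1 -0.34 to 0.14, Txn1 -0.27 to 0.28, Txn2 -0.24 to 0.25, Txnip -0.61 to 0.043 and Txnrd1 -0.60 to 0.049.

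Leaving out both knockout libraries high in muscle transcripts, a choice made after seeing the data, leaves 1 knockout library, whose spread is taken to be that of wild type. It gave 13 calls over all genes as deposited and 8 scaled, a member median of 0.13 scaled and 18 members lower, and turned the signs of Hmox1 0.029, Gsta4 -0.054, Gclm 0.083 and Prdx1 0.036 as deposited, and of Hmox1 0.46, Hmox2 0.14, Nfe2l2 0.18, Gsto1 0.19, Gstz1 0.30, Gpx4 0.061, Gclc 0.21, Gclm 0.50, Gss 0.030, Prdx1 0.47, Prdx3 0.20, Prdx5 0.11, Sod1 0.13, Txn1 0.35, Txn2 0.28 and Txnrd1 0.21 scaled. The cause was not tested. FPKM gives no counting error, and 3 libraries a group limit the precision.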
